A study of Arabidopsis thaliana with 6 samples.

Results

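AT2G44240, AT2G32190, AT1G72060, AT1G15010, SAL2 and AMY1 are 6 Arabidopsis genes whose transcripts were far more abundant in plants that lack the vacuolar exchangers CAX1 and CAX3, and that were grouped for standing outside the usual defence families. They are 6 of the 13355 genes named on the array, and each was measured by 1 probe set that the platform's annotation gives to that gene alone. They were chosen by their measured log2 differences between the genotypes and, since a test result entered the choice, by their spread within genotypes. Those differences are therefore given here as a description, without a test.

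The wild type was Columbia-0 and the mutant was the cax1cax3 double mutant in the same ecotype, with 3 samples each and 1 Affymetrix array per sample. Seedlings of both genotypes spent 10 days on medium with 0.5% sucrose and then 3 weeks in soil, with 16 hours of light and at 22 °C, and the labels give an age of 40 days. By harvest, necrotic lesions had started to show on the mutant. RNA came from whole plants, so a change in the share of an organ or cell type and a change in RNA per cell cannot be told apart. Nothing in the labels ties the samples of a genotype to separate cultures or plants, so any p-value here refers to differences among these samples alone, and these may be technical.

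CAX1 and CAX3 exchange protons for calcium at the vacuolar membrane and so help to keep cytosolic calcium low. AMY1 encodes a secreted alpha-amylase, an enzyme that cuts the glucose chains of starch, and is known from senescing and stressed leaves. SAL2 belongs with SAL1 to a family of phosphatases. SAL1 breaks down phosphoadenosine phosphate, a by-product of sulfate transfer that acts as a stress signal from organelles to the nucleus. For AT2G44240, AT2G32190, AT1G72060 and AT1G15010 the gene tables used here give a locus and no product name, so no role is stated for them. The lists of possible relatives used for them further on come from general knowledge, and no annotation used here backs a place in those families.

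Values are log2 expression per probe set as deposited, so 1 unit is a doubling, and a difference is the mutant's mean less that of the wild type. Background was judged from 27 probe sets for Bacillus subtilis transcripts that serve as array controls. Their median over all arrays was 4.04 and their 95th percentile 4.70, and values below this pooled percentile are said to lie within background. For single arrays the percentile was 4.48 to 4.53 in the wild type and 4.58 to 4.72 in the mutant. Some wild-type values counted as within background therefore lay above the percentile of their own array. Array medians ran from 7.03 to 7.08, and the median difference over all 22746 tested probe sets was 0.01.

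AT2G44240 went from background to a clear signal. The wild-type arrays read 4.35, 4.50 and 4.44, and the mutant arrays 9.23, 10.67 and 9.84. All wild-type values were below the pooled 95th percentile of the control probe sets, so the fold is a lower bound. The value of 4.50 on wild-type array 2 was just above that array's own percentile, 4.48. Against that percentile the mutant mean of 9.91 ± 0.73 (SD, n = 3) was at least 37.2-fold higher. Its difference of 5.49 was the largest rise among all tested probe sets.

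AT2G32190 also started near background. In the wild type it read 4.71, 4.67 and 4.91, and in the mutant 7.65, 8.08 and 8.18. Of the wild-type values 1 lay below the pooled control percentile, though not below that of its own array. The mean was 4.77 ± 0.13 in the wild type and 7.97 ± 0.28 in the mutant (SD, n = 3), a difference of 3.21, or 9.24-fold. The gap between the lowest mutant and the highest wild-type array was 2.74. A further probe set is annotated to both AT2G32190 and its near neighbour AT2G32210, so its signal cannot be divided between them. It read 4.73, 4.42 and 5.70 in the wild type and 7.78, 8.25 and 8.03 in the mutant, a difference of 3.07. On it, wild-type array 3 stood above the other wild-type arrays by more than on the probe set of AT2G32190 alone.

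SAL2 was measurable in the wild type and had the second-largest rise among named genes. Its wild-type arrays agreed closely, at 5.53, 5.45 and 5.50, whereas its mutant arrays read 8.64, 9.80 and 10.22. Means were 5.49 ± 0.04 and 9.55 ± 0.82 (SD, n = 3), which is a difference of 4.06, or 16.7-fold. Even the nearest pair of arrays from different genotypes stood 8.62-fold apart.

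AMY1 was well above background in the wild type, at 7.33, 7.01 and 7.26. The mutant arrays read 9.64, 10.44 and 11.30. The mean went from 7.20 ± 0.16 to 10.46 ± 0.83 (SD, n = 3), a difference of 3.26, or 9.57-fold, with mutant array 3 highest and mutant array 1 lowest. The lowest mutant array was 4.98-fold above the highest wild-type array.

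AT1G72060 and AT1G15010 both came from a measurable wild-type level and had nearly equal mean differences, but unlike spreads. AT1G72060 read 7.05, 6.48 and 6.48 in the wild type and 10.08, 10.65 and 8.77 in the mutant. Its means were 6.67 ± 0.33 and 9.84 ± 0.96 (SD, n = 3), a difference of 3.16, or 8.96-fold. Mutant array 3 was the low one, and the gap between the genotypes' nearest arrays was 1.72, the smallest among the 6 genes. AT1G15010 read 5.97, 5.87 and 5.61 in the wild type and 8.92, 9.17 and 8.82 in the mutant. Its means were 5.82 ± 0.19 and 8.97 ± 0.18 (SD, n = 3), a difference of 3.15, or 8.89-fold, and its nearest arrays were 2.85 apart.

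**Figure D1:**
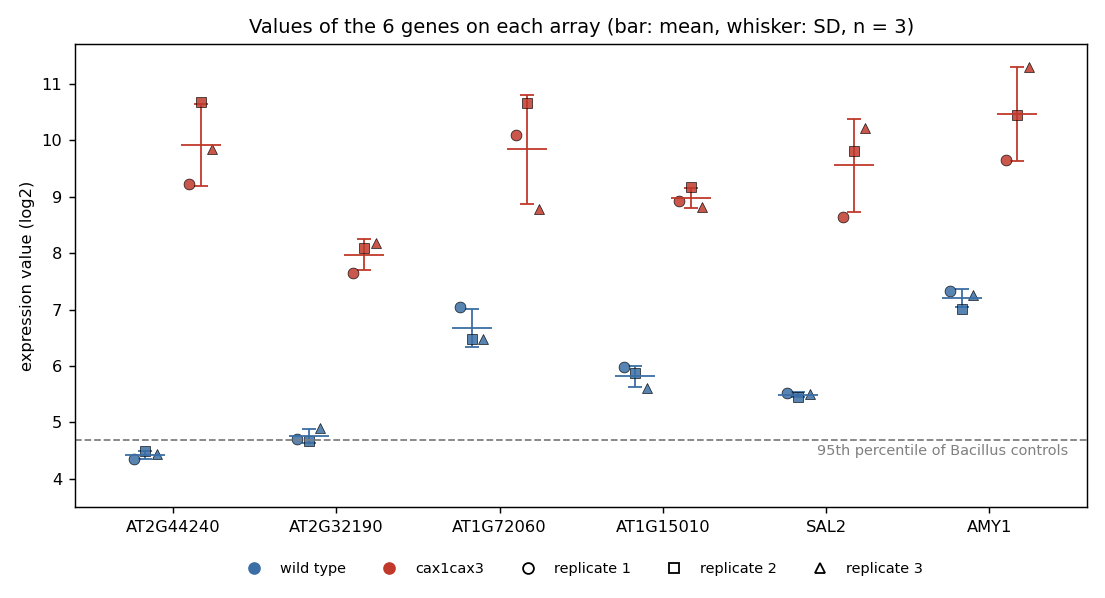
Expression values (log2) of the 6 genes on each array, wild type in blue and cax1cax3 in red, with the marker shape giving the replicate number, the bar the mean and the whisker the SD of 3 arrays. The dashed line is the 95th percentile of the Bacillus subtilis control probe sets, 4.70, below which all 3 wild-type values of AT2G44240 lie.

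In all 6 genes every mutant array was above every wild-type array. Over all probe sets 11.6% had that pattern, and since the genes were chosen for their rise the comparison carries no weight. Among all probe sets there were 23 that were higher in the mutant by 3 log2 units or more, of which 9 were named with 1 gene, including the 6 described here. The other 3 were the calmodulin-like gene CML41 (3.85), whose product senses calcium, the chitinase gene CHI (3.30) and AT3G47480 (3.02). The smallest difference of the 6 genes, 3.15 for AT1G15010, stood at position 8 among the named genes that were called higher, did not overlap and had a mutant mean above the median of all values. AT3G47480 (8.12-fold) and the ubiquitin ligase gene RING1 (7.99-fold, just under 3 log2 units) came next, followed by CCOAMT, a methyltransferase gene (7.23-fold). 

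**Figure D2:**
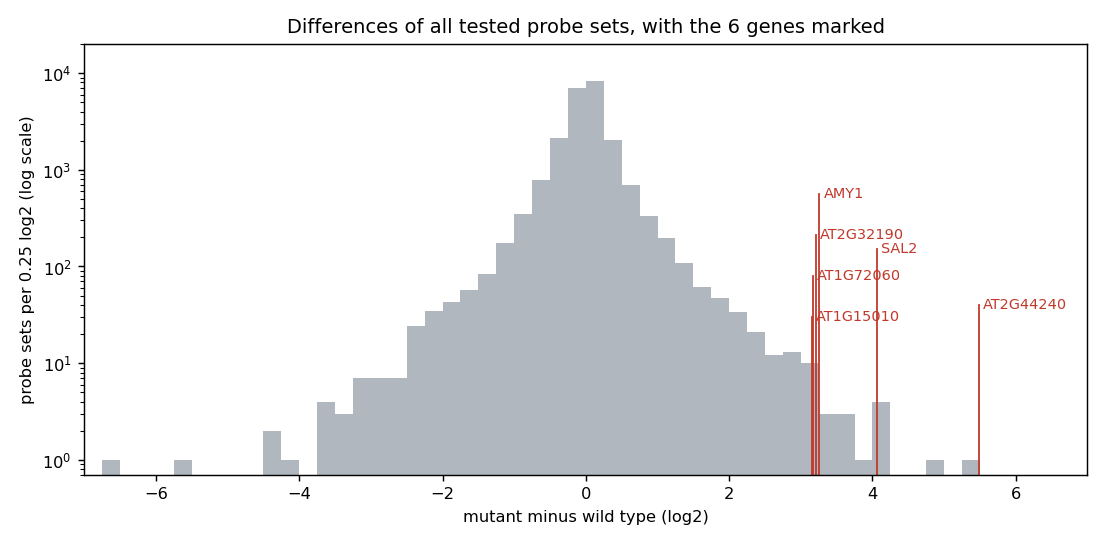
Number of probe sets (log scale) by difference between mutant and wild type in steps of 0.25 log2 units, over all 22746 tested probe sets. Red lines mark the 6 genes: 4 lie between 3.15 and 3.26, with SAL2 at 4.06 and AT2G44240 at 5.49.

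The replicate numbers showed how evenly each gene differed. Within arrays of the same number, the difference of AT2G44240 was 4.88, 6.18 and 5.40 for numbers 1, 2 and 3, measured against wild-type values within background, so the true differences may be larger. AT2G32190 had 2.94, 3.41 and 3.27, and AT1G15010 had 2.95, 3.30 and 3.21. These latter genes were the even ones, with the narrowest ranges of within-number differences among the 6. SAL2 had 3.11, 4.35 and 4.72, and AMY1 had 2.32, 3.42 and 4.03, so both were lowest for number 1 and highest for number 3. AT1G72060 had 3.03, 4.18 and 2.29, with its largest difference for number 2 and its smallest for number 3. On the linear scale that is 18.1-fold for number 2 and 4.88-fold for number 3.

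Most of this spread lay among the mutant arrays. The SD was larger in the mutant than in the wild type for 5 of the 6 genes, the exception being AT1G15010 with 0.18 against 0.19. For SAL2 the mutant SD was 19.8 times the wild-type SD, for AT2G44240 it was 9.90 times and for AMY1 5.03 times. Over all probe sets the SD was larger in the mutant for 62.1%, with a median ratio of 1.28. A ratio of SDs from 3 arrays each is imprecise, and the wild-type values of AT2G44240 lay within background. The range over the mutant arrays was 1.88 log2 units for AT1G72060, 1.65 for AMY1, 1.58 for SAL2 and 1.45 for AT2G44240. For AT2G32190 and AT1G15010 it was 0.53 and 0.35. The pooled SDs ran from 0.18 for AT1G15010 to 0.72 for AT1G72060, and the median over all probe sets was 0.17.

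The mutant arrays did not rank alike across the genes. Mutant array 1 was the lowest mutant array for AT2G44240, AT2G32190, SAL2 and AMY1, and mutant array 3 was the lowest for AT1G72060 and AT1G15010. Array 3 lay 1.26 above the mean of the other mutant arrays for AMY1 and 1.00 above it for SAL2. For AT1G72060 it lay below that mean, by a difference of -1.60. Among all probe sets called higher, mutant array 1 was the lowest mutant array for 55.6%.

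**Figure D3:**
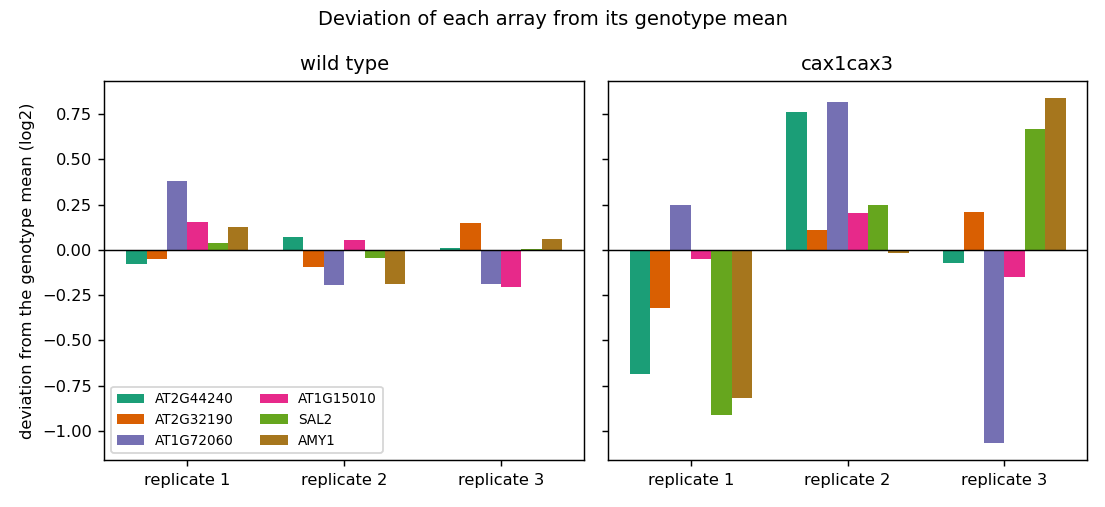
Deviation of each array from the mean of its genotype (log2), by replicate number, for the wild type on the left and cax1cax3 on the right, with a colour for each gene. In the mutant, SAL2 and AMY1 deviate by -0.91 and -0.82 on array 1 and by 0.67 and 0.84 on array 3, while AT1G72060 deviates by -1.06 on array 3.

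Over the 6 arrays the 15 pairs among these genes had Pearson correlations from 0.838 to 0.995, which hold the genotype difference they were chosen for. Once each genotype's mean was removed, the correlations ran from -0.603 to 0.949, and 6 of the 15 pairs were negative. SAL2 and AMY1 were the most alike (0.949), followed by SAL2 with AT2G32190 (0.913) and AMY1 with AT2G32190 (0.873). AT1G72060 and AT1G15010 went together (0.755). The lowest value was that of AT1G72060 with AMY1. These are descriptions over the same 6 arrays for every pair.

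The genes most like each of the 6 were sought among 1894 named probe sets whose values spanned at least 1 log2 unit, by Pearson's r over the 6 arrays. Because the genotype difference dominates r, the correlation of deviations from the genotype means is given beside it. Picking genes for a very high r over the same arrays also favours high correlations of deviations. These values are therefore a description and no separate check, and they were not set against those of the other candidates. AMY1 was most like GLR1.4, a gene for a glutamate receptor-like channel (r = 0.995, deviations 0.960), CCOAMT (0.994 and 0.961) and AT4G39830 (0.994 and 0.922). CCOAMT read 5.66, 5.71 and 5.52 in the wild type and 7.62, 8.38 and 9.45 in the mutant, with array 3 highest as for AMY1. SAL2 was most like AT1G10340 (r = 0.995, deviations 0.891), RING1 (0.994 and 0.906) and AT3G47480 (0.994 and 0.910). RING1 started from a high wild-type level, 10.22, 9.87 and 9.96, and reached 12.63, 13.08 and 13.33 in the mutant.

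AT2G32190 was closest to AT3G47480, with r = 0.999 and a correlation of deviations of 0.989. AT3G47480 read 6.54, 6.39 and 6.73 in the wild type and 9.18, 9.68 and 9.86 in the mutant, and its difference of 3.02 was close to the 3.21 of AT2G32190. AT1G13340 and AT1G49050 came next for AT2G32190 (r = 0.998 and 0.997, deviations 0.904 and 0.831), with differences of 1.26 and 1.20. AT1G15010 was closest to CML41 (r = 0.999, deviations 0.912), which read 7.68, 7.41 and 7.31 in the wild type and 11.29, 11.46 and 11.20 in the mutant. On CML41 as on AT1G15010, array 3 was the lowest array in both genotypes. AT1G65690 and AT5G42830 followed for AT1G15010 (r = 0.993 and 0.991, deviations 0.911 and 0.732).

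AT2G44240 was most like AT5G42830 (r = 0.996, deviations 0.870), AT1G63750 (0.994 and 0.896) and LUP5, named for a lupeol synthase (0.993 and 0.985). LUP5 differed by 1.24, far less than AT2G44240, and had mutant array 2 highest, as AT2G44240 did. AT1G72060 was most like AT4G39270, AT1G24530 and AT4G28085 (r from 0.991 to 0.996, deviations from 0.955 to 0.986), all with mutant array 3 lowest. Their differences, 0.84, 1.84 and 0.78, were well below the 3.16 of AT1G72060.

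Possible relatives of the 6 genes were compared as well. They were listed by family or pathway, with earlier results of these data known, and read from limma's fit over all probe sets, in which a gene is called at an adjusted p under 0.05. That fit called 2.34% of all probe sets higher and 3.28% lower in the mutant. Of 79 listed loci 25 had a named probe set, and of these 1 was called higher, 1 lower and 23 neither, close to the share over all probe sets. Their median difference was 0.03, against 0.01 over all probe sets. With the replicate number as a block, 4 were called higher and 2 lower. Both were larger shares than the 4.63% and 5.15% that the same fit called of all probe sets.

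For SAL2, a list of SAL-type phosphatases and genes around phosphoadenosine phosphate had 5 measured members of 18. The member called higher was AT5G09290, listed as a phosphatase relative. It read 5.29, 5.16 and 4.86 in the wild type and 6.21, 6.63 and 6.56 in the mutant, with no overlap. Its difference was 1.36 ± 0.16 (SE), or 2.57-fold (limma adjusted p = 0.00896). Without mutant array 2 its adjusted p was 0.0508. AT5G63990, which lies between SAL1 and SAL2 on the chromosome, was at 7.40 ± 0.09 in the wild type and 7.72 ± 0.16 in the mutant (SD, n = 3) and was not called (0.33 ± 0.12, SE, limma adjusted p = 0.188). STZ, a zinc finger factor gene also known as ZAT10, was not called (0.60, limma adjusted p = 0.358), and neither was TAAC, which encodes a plastid nucleotide carrier (-0.37, limma adjusted p = 0.629).

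The starch list drawn up for AMY1 had 3 measured members of 26, and none was called at the threshold by limma, with or without the replicate block, and 0 had an unadjusted p under 0.05. They were DPE1, for a disproportionating enzyme, and the loci of 2 dikinases that phosphorylate glucans, AT4G24450 and AT5G26570, with differences of 0.07 to 0.12. Other alpha-amylase genes had no named probe set here, so AMY1 was not compared with them.

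AT1G05340, from a list of small cysteine-rich transmembrane proteins drawn up for AT2G32190, read 8.57, 8.76 and 7.68 in the wild type and 9.76, 10.04 and 9.36 in the mutant. The groups did not overlap, and array 3 was the lowest in each. Its difference of 1.39 ± 0.31 (SE) missed the threshold (limma adjusted p = 0.0521) and passed it with the replicate block (adjusted p = 0.0111). None of the 4 measured members of that list was called by limma without the block, and 2 had an unadjusted p under 0.05.

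AT2G44240 lies in a row of loci of which some were listed as relatives. The listing of AT2G44230, which is counted among the 25, is doubtful. None of AT2G44210, AT2G44230 and AT2G44250 was called by limma, with or without the block, 1 of them had an unadjusted p under 0.05, and the differences were -0.72 for AT2G44210 and -0.12 for AT2G44230. AT2G44250 was within background on all arrays of both genotypes, so no difference is given for it. AT2G44210 was the nearest to a call, in the opposite direction, with 10.38 ± 0.33 in the wild type and 9.66 ± 0.10 in the mutant (SD, n = 3, limma adjusted p = 0.0653). AT2G01300, listed as a relative of AT1G15010, read 6.73, 6.27 and 6.47 in the wild type and 6.55, 7.26 and 6.74 in the mutant. Its groups overlapped, and it was not called (0.36 ± 0.21, SE, limma adjusted p = 0.412).

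Protease inhibitor genes, listed for AT1G72060, had 9 measured members of 17 with a median difference of 0.01. The member called was lower. AT1G72290 read 7.25, 6.60 and 5.88 in the wild type and 4.63, 4.61 and 5.10 in the mutant, of which 2 values were below the control percentile. It fell by 1.80 on the log2 scale (SE 0.34, limma adjusted p = 0.0320), and the call was lost in 4 of the 6 fits on 5 arrays, with a highest adjusted p of 0.136 when mutant array 2 was omitted. AT2G38900 (-1.14, adjusted p = 0.121, 2 mutant values within background), AT2G43550 (-0.63, adjusted p = 0.218) and AT1G17860 (0.54, adjusted p = 0.310) were not called by limma. With the replicate block AT1G17860 and AT2G38870 were called higher and AT2G43550 lower (adjusted p = 0.0259, 0.0243 and 0.0237).

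**Figure D4:**
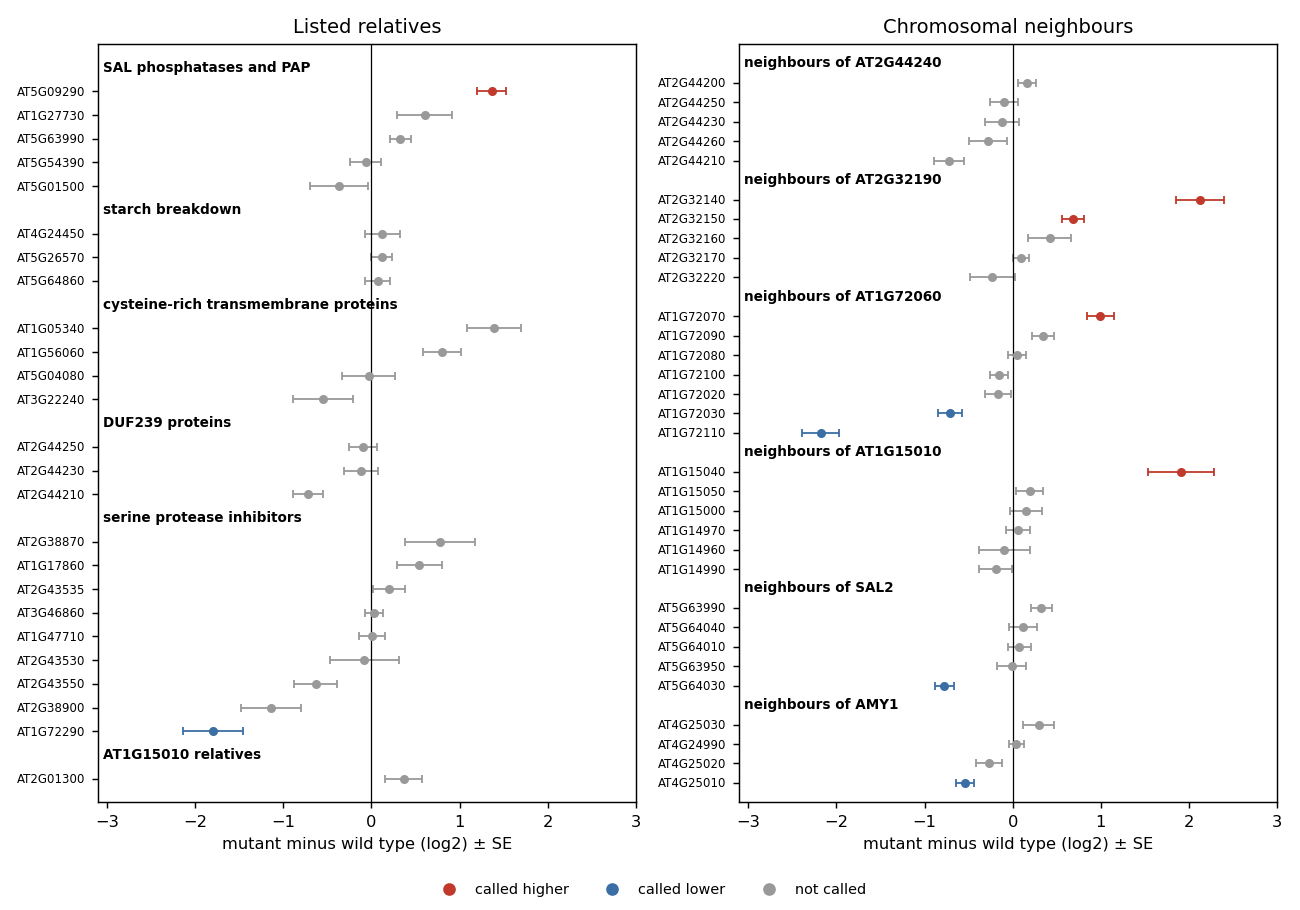
Difference between mutant and wild type (log2, ± SE from limma, 3 arrays a group) for measured genes listed as relatives of the 6 genes on the left and for their chromosomal neighbours on the right. Among the relatives AT5G09290 is called higher (red) and AT1G72290 lower (blue), and 23 are not called (grey).

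Neighbouring genes on the chromosome were mixed. For the 5 protein-coding loci on either side of each gene, 32 of 60 had a named probe set. Of these 4 were called higher, 4 lower and 24 neither. Both shares were larger than the 2.34% and 3.28% that the fit called of all probe sets, and the cause was not tested. The median difference of the measured neighbours was 0.04, against 0.01 over all probe sets. The called ones are named after their values were seen. Near AT2G32190, AT2G32140 read 4.66, 4.58 and 4.81 in the wild type and 6.14, 7.13 and 7.15 in the mutant, a fitted rise of 2.12 ± 0.27 (SE, limma adjusted p = 0.0110) in which 2 of the 3 wild-type values lay within background. AT2G32150 rose by 0.68. AT2G32160, AT2G32170 and AT2G32220, from the same stretch, were not called.

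Around AT1G72060 the neighbours went both ways. AT1G72070 rose by 0.99, AT1G72030 fell by 0.71, and AT1G72110 went from 7.59 ± 0.42 to 5.41 ± 0.15 (SD, n = 3), a difference of -2.18 ± 0.21 (SE, limma adjusted p = 0.00574). AT1G72110 stayed called in all 6 fits that left out an array. The rise of GAT1_2.1 (AT1G15040) near AT1G15010, 1.91 on one probe set, was absent on its other probe set, which read at background on all arrays (0.00). Near SAL2 the gene AT5G64030 fell by 0.77, and beside AMY1 the sugar transporter gene SWEET14 fell by 0.54, with 1 mutant value within background. None of the 5 measured neighbours of AT2G44240 was called by limma, and 1 had an unadjusted p under 0.05. Apart from AT1G72110, each called neighbour lost its call in 2 to 5 of the 6 fits that left out an array.

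Markers of organs in a whole plant were scarce among the named probe sets. Of 25 listed markers 5 were measured, and none of the seed, photosynthetic leaf or senescing leaf markers was among them. The anther gene AT5G07230 (A9) fell by 0.71 (limma adjusted p = 0.0391), a call lost in 4 of the 6 fits on 5 arrays. SHT and AMS, also of the anther, had fitted differences of -0.44 and -0.32, with all 3 mutant values of each and 2 of the 3 wild-type values of AMS within background. The root genes EXPA7 and PYK10 had 0.06 and -0.05, with EXPA7 close to background on all arrays (4.75 to 5.11). None of these 4 was called by limma without the block, and SHT was called lower with it (adjusted p = 0.0412). The part of organ makeup in the values of the 6 genes was not tested.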

How the data were processed

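Biotin-labelled RNA from whole plants was hybridised to 6 Affymetrix arrays. The deposited values are log2 expression per probe set, and the submitters' processing notes list GCOS 1.1.2 and RMA and say nothing of their settings. The scale was inferred from the values, which were not normalized again. The table held 22810 probe sets, of which 64 controls were left out of the tests. The platform's annotation, which can be old, assigned 13513 probe sets to 1 gene each, 503 to several and 8730 to none. Symbols were updated through gene numbers for 13436 of them with a RefSeq gene table (TAIR10.1). Chromosome and start position in that gene table set the order of loci from which neighbours were taken, and no sequences were used.

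The 6 genes and all lists were chosen with earlier results of these data known. The lists of relatives and markers were written from general knowledge, and the neighbours were added from the order of loci in the gene table. A gene with several probe sets was represented by the one with the highest mean. Most genes were named by rule: up to 4 per list by adjusted p, or the one with the largest difference where none was called, and the 3 most alike for each of the 6. Some were named outside that rule, among them DPE1, AT5G26570, AT2G44230, AT2G44250, AT2G38870 and AT2G32220.

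Genotypes were compared with limma 3.58.1 (lmFit and eBayes, R 4.3.3) on all 6 arrays, with Benjamini-Hochberg adjustment over 22746 probe sets. The fit was tested on simulated data of that size. It called 65.1% of the changes of 1 log2 unit and 88.3% of those of 2, with 10 false calls. A gene that was not called may therefore still differ. The simulated noise was independent between arrays, which that of the real arrays was not. The number of arrays limits the precision. Replicate numbers come from the sample titles. Deviations from genotype means correlated between arrays of the same number (0.43, 0.29 and 0.47 for numbers 1, 2 and 3), so the fit with the number as a block is given where it changes a call. Other alternatives were quantile normalization, median centring, array weights, a filter on low means, another variance prior, a higher background floor and leaving out each array.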

Additional observations from a re-analysis of the deposited data

How the results depend on the processing

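The differences of the 6 genes kept their direction under every alternative run. That carries no weight, since the genes were chosen for their rise. With no overlap between genotypes, leaving out an array could not reverse a difference, and in this balanced design the replicate block could not change one. Without any 1 array no fold moved by more than 1.45 times. With an array left out the differences ran from 5.11 to 5.83 for AT2G44240, 3.10 to 3.37 for AT2G32190, 2.76 to 3.70 for AT1G72060, 3.05 to 3.23 for AT1G15010, 3.73 to 4.52 for SAL2 and 2.84 to 3.67 for AMY1. With the highest control value as floor, the lower bound of AT2G44240 went from 5.22 to 4.10. That floor, 5.81, also lay above all wild-type values of AT2G32190 and SAL2, for which no bound was computed. The counts of calls were less stable. Without the block 532 probe sets were higher and 747 lower, with the replicate block 1053 and 1171, with array weights 1286 and 1560, and with an array left out 108 to 797 and 147 to 947 (fewest without mutant array 2). Relatives called higher numbered 4 with the replicate block, 3 with array weights, 2 with the probe sets of lowest mean left out and 2 with the other variance prior, and 0 to 2 with an array left out. Those called lower numbered 2 with the block, 3 with array weights and 0 to 2 with an array left out. For neighbours the ranges were 0 to 4 higher and 1 to 4 lower. The causes were not tested.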
